A study of Mus musculus with 6 samples.

Results

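The Bcl2 family and *Apaf1*, 10 genes of the intrinsic (mitochondrial) pathway of apoptosis, were examined in undifferentiated mouse embryonic stem cells (mESCs). Members were the probe sets of the deposited expression table that gene identifier, accession or symbol assigned to *Bcl2*, *Bcl2l1*, *Mcl1*, *Bax*, *Bak1*, *Bcl2l11*, *Bid*, *Bbc3*, *Pmaip1* or *Apaf1*. All 10 genes were found, with 27 of the 33142 probe sets of the table, which represent 15198 named genes. A probe set is a group of short oligonucleotides whose brightness reflects the abundance of a transcript, and a gene is given by its brightest probe set. WT and *Alkbh1*-/- mESCs, both of C57BL/6 background, were each measured on 3 Affymetrix arrays at passage 8 and day 0 of differentiation. Both lines came from littermate embryos of heterozygous parents and were grown with LIF on irradiated mouse fibroblasts, and neither was treated before the RNA was extracted. The sources used here name no further line of either genotype, so that the effects of genotype and of line cannot be told apart. The lines also differed in X- and Y-linked signal, as given below.

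In this pathway, anti-apoptotic proteins such as BCL2, BCL-XL (*Bcl2l1*) and MCL1 hold the effectors BAX and BAK in check at the outer mitochondrial membrane. BH3-only proteins, among them BIM (*Bcl2l11*), BID, PUMA (*Bbc3*) and NOXA (*Pmaip1*), bind the anti-apoptotic proteins or the effectors and so release or trigger BAX and BAK. The opened membrane lets cytochrome c reach APAF1, which then assembles the apoptosome and activates caspase-9. Mouse ESCs are known for a low threshold to apoptosis, and the study measured apoptosis when *Alkbh1*-/- cells were differentiated towards the neural lineage. The question put to these arrays is what the transcripts of the pathway looked like in the 2 genotypes before differentiation.

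The deposited tables hold means and not single arrays. For every probe set of the expression table, the mean log2 value over all 6 arrays is given. The mean intensity of each genotype is given only for entries that the authors listed at a nominal p under 0.05, after a filter that 7320 probe sets passed, so the group means below belong to probe sets that were selected for a difference. There is 1 mean per genotype without an error. The authors' own test statistics were left aside, these means by themselves allow no test of the difference, and whether a difference exceeds the spread between arrays cannot be read from it. The smallest fold among the 4265 probe sets with group means was 1.29. A smaller difference, one with a larger spread, or a failure to pass the filter leaves a gene without group means. Members without them are therefore given by their overall level alone, and nothing is said of their difference.

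Of the 10 members, 4 had group means at the brightest probe set. *Bcl2l11*, *Bid* and *Bcl2* were lower in *Alkbh1*-/- mESCs, by 1.72-fold, 1.44-fold and 1.40-fold, and *Pmaip1* was 1.96-fold higher. Thus the anti-apoptotic *Bcl2*, whose signal was low, and the pro-apoptotic *Bcl2l11* and *Bid* lay on the same side. The BH3-only members did not all lie on one side. Over all genes of the table, 14.7% had group means at the brightest probe set. By probe sets, 9 of the 27 (33.3%) of these genes had group means, against 12.9% of all probe sets, but the 9 belong to only 4 genes and are not independent. Of the 9, 8 were lower and 1 was higher in *Alkbh1*-/- mESCs, and 48.5% of all probe sets with group means were lower. By genes, 3 of the 4 were lower, beside 1179 of all 2240 genes with group means. The latter include 278 X-linked genes, of which 257 were higher, whereas no member is X-linked. These counts give no basis for setting the members apart. The median size of the difference was 0.55 on the log2 scale over these 9 and 0.67 over all probe sets with group means.

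The targeted gene showed the direction of the labels. *Alkbh1* (1434660_at, chromosome 12) had an authors' mean intensity of 761 in WT and 25.7 in *Alkbh1*-/- mESCs, 29.6-fold lower in the latter. Its other probe set (1438681_at) was 3.47-fold lower.

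Of the members that were lower in *Alkbh1*-/- mESCs, *Bid* is not shown here because its annotated span overlaps its upstream window. The upstream regions of *Bcl2* and *Bcl2l11* are shown, as no annotated transcript of either gene covers the stretch printed. Each runs 5′ to 3′ on the strand of the gene over the 250 bases before its start site (RefSeq, GRCm38.p6). Capitals mark the GC box (GGGCGG), the CCAAT box (CCAAT) and the core motif of FOXO factors (TGTTTAC), each read on both strands. The *Bcl2* stretch lies at chr1:106714291-106714540 on the minus strand and that of *Bcl2l11* at chr2:128125788-128126037 on the plus strand.
Bcl2: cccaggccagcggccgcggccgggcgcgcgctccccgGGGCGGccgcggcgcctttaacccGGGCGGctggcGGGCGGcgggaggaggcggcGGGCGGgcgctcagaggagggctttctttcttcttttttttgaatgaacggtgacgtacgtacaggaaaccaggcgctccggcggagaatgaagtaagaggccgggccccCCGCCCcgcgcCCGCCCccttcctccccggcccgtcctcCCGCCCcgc
Bcl2l11: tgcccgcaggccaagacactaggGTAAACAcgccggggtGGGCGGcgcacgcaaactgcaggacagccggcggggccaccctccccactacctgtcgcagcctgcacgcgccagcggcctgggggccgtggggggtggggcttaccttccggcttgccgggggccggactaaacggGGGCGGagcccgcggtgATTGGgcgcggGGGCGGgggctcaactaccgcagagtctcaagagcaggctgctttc
The *Bcl2* stretch has a GC content of 74.8% and holds 7 GC boxes, with no match to the other motifs. The *Bcl2l11* stretch has a GC content of 72.0% and holds 3 GC boxes, 1 CCAAT box and 1 FOXO core. FOXO transcription factors are known activators of *Bcl2l11*. Among 32851 upstream windows of the same length, 32.7% held a GC box, 33.8% a CCAAT box and 3.17% a FOXO core. Among the members, RefSeq windows of 9 of the 10 were searched (14 windows). Windows of the same gene are not independent, and the shares above are of windows and not of genes. *Pmaip1* was left out of this search, so the member counts that follow say nothing of it. A GC box was found in 10 of the 14 windows (7 genes, all but *Bcl2l1* and *Bak1*), a CCAAT box in 3 (*Bcl2l11* and *Bbc3*) and a FOXO core in 2 (*Bcl2l11* and *Bbc3*). The window at the other start site of *Bcl2l11* held 2 GC boxes and 2 CCAAT boxes but no FOXO core. The E-box (CACGTG), found in 6.02% of all windows, was matched in 2 of the 14 (*Bax* and *Bbc3*), and the CRE (TGACGTCA), found in 1.55%, in none. A match is a description of the letters, and nothing was measured here of any factor's binding.

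Among the BH3-only genes, *Bcl2l11* had the most probe sets with group means. BIM, its product, binds all the main anti-apoptotic proteins. The brightest probe set, 1456005_a_at, had an authors' mean intensity of 488 in WT and 284 in *Alkbh1*-/- mESCs, a log2 difference of −0.78. At 1435448_at, the authors' mean intensity was 273 in WT and 162 in *Alkbh1*-/- mESCs, 1.69-fold lower. For 1435449_at, the authors' mean intensities were 152 and 99.8 in the same order, 1.52-fold lower. The dimmer 1426334_a_at gave 76.2 in WT and 52.8 in *Alkbh1*-/- mESCs, 1.44-fold lower. All 4 probe sets were thus lower in *Alkbh1*-/- mESCs, with log2 differences between −0.78 and −0.53, and they share the same arrays. The remaining probe set, 1456006_at, was the dimmest of the gene, with a mean log2 value of 5.49, and had no group means. Of all genes with group means, 18.5% had a lower log2 difference than *Bcl2l11*.

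*Bid* encodes a BH3-only protein that caspase-8 cleaves and that links death receptors to mitochondria. Its brightest probe set, 1417045_at, had an authors' mean intensity of 807 in WT and 559 in *Alkbh1*-/- mESCs, a log2 difference of −0.53. The second, 1448560_at, had 274 in WT and 187 in *Alkbh1*-/- mESCs, 1.47-fold lower. Both probe sets thus gave the same direction and nearly the same fold. The dimmest of the 3 probe sets, 1447873_x_at (mean log2 value 5.76), had no group means. Of all genes with group means, 39.8% had a lower log2 difference than *Bid*.

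*Pmaip1* was the single member that was higher in *Alkbh1*-/- mESCs. NOXA binds chiefly MCL1, and its gene is a known target of p53. Its only probe set, 1418203_at (chromosome 18), had an authors' mean intensity of 1625 in WT and 3182 in *Alkbh1*-/- mESCs, a log2 difference of 0.97. Of all genes with group means, 87.3% had a lower log2 difference than *Pmaip1*. With a mean log2 value of 11.15, it was brighter than 95.0% of all probe sets. *Bbc3*, which encodes PUMA, another target of p53 that binds all anti-apoptotic proteins, has 1 probe set (1423315_at) with a mean log2 value of 8.00 and no group means.

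Of the anti-apoptotic genes, *Bcl2* had group means. Its brightest probe set, 1422938_at (chromosome 1), had an authors' mean intensity of 44.6 in WT and 31.8 in *Alkbh1*-/- mESCs, a log2 difference of −0.49. For 1457687_at, the authors' mean intensities were 28.7 in WT and 20.0 in *Alkbh1*-/- mESCs, 1.44-fold lower. Both lay in the lower part of the range of the deposited table, at the 33.2 and 20.4 percentiles of all its probe sets. Their mean log2 values, 5.24 and 4.58, lay within the range of the 5 endoderm markers given below (3.92 to 5.31). The third probe set of *Bcl2*, 1437122_at, was lower still (mean log2 value 4.24) and had no group means. Of all genes with group means, 45.6% had a lower log2 difference than *Bcl2*.

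**Figure D1:**
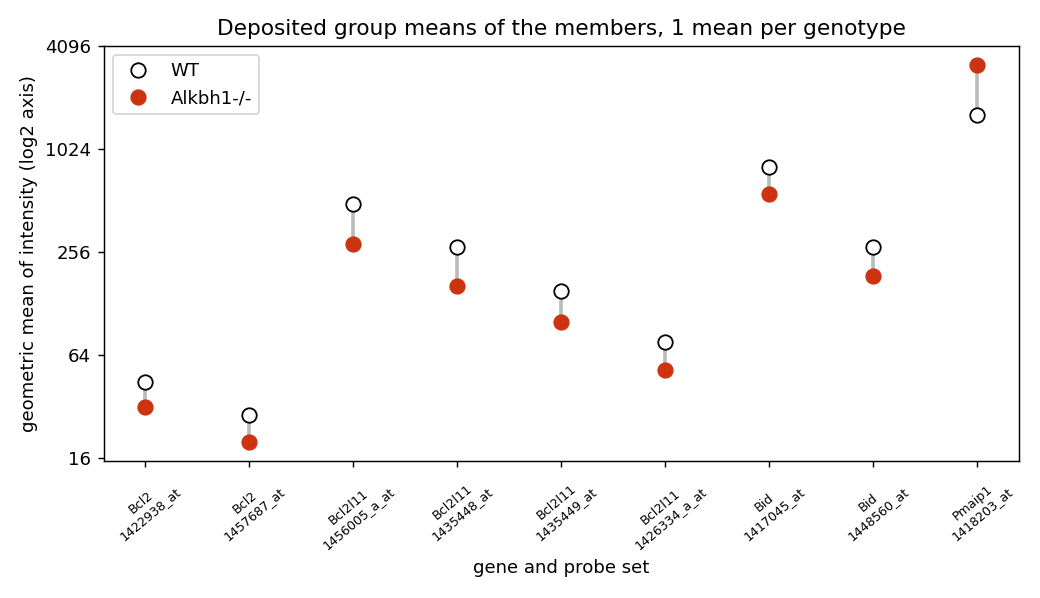
Authors' geometric mean of intensity (y axis, log2 scale) for the 9 probe sets with group means, with WT as open and *Alkbh1*-/- as filled circles, joined by a line. The 8 probe sets of *Bcl2*, *Bcl2l11* and *Bid* lie lower in *Alkbh1*-/- mESCs and that of *Pmaip1* higher; no error is drawn because each genotype has 1 deposited mean.

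The other anti-apoptotic genes had no group means. *Mcl1*, whose product is short-lived and is needed by early embryos, was measured by 6 probe sets with mean log2 values between 10.98 and 12.59, and all 6 lay without group means. For *Bcl2l1*, the 3 probe sets spread over 4.06 on the log2 scale. The brightest, 1420888_at, had a mean log2 value of 8.50, and 1420887_a_at and 1426191_a_at had 5.72 and 4.44. The probe set that the file names for the long form of BCL-X, 1426191_a_at, was thus the dimmest. Probe sets differ in how well their oligonucleotides bind, so these values do not rank transcripts or forms.

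The effectors and *Apaf1* had no group means either. *Bax* has 1 probe set, 1416837_at, with a mean log2 value of 9.72. *Bak1* has 2, at 6.99 (1418991_at) and 4.38 (1425716_s_at). *Apaf1*, on chromosome 10, has 2 as well, at 8.74 (1452870_at) and 6.66 (1450223_at).

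Signal above the middle of the range of the deposited table was found for most members. At the brightest probe set, 9 of the 10 lay above the median of all probe sets (mean log2 value 6.31) and 7 above the upper quartile (8.38). The brightest probe set of a gene is chosen for its level, and by the same choice 9404 of all 15198 genes lay above this median. The share of all genes above the upper quartile was not taken, so the 7 members there are a description only. *Bcl2* was the exception at the median, and *Bak1* and *Bbc3* lay between the median and the upper quartile. Of the 27 probe sets, 18 lay above the median. Within the 7 genes with several probe sets, the means spread by 1.00 (*Bcl2*) to 4.06 (*Bcl2l1*) on the log2 scale. For *Bcl2*, *Bcl2l11* and *Bid*, the probe set without group means was the dimmest of the gene.

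**Figure D2:**
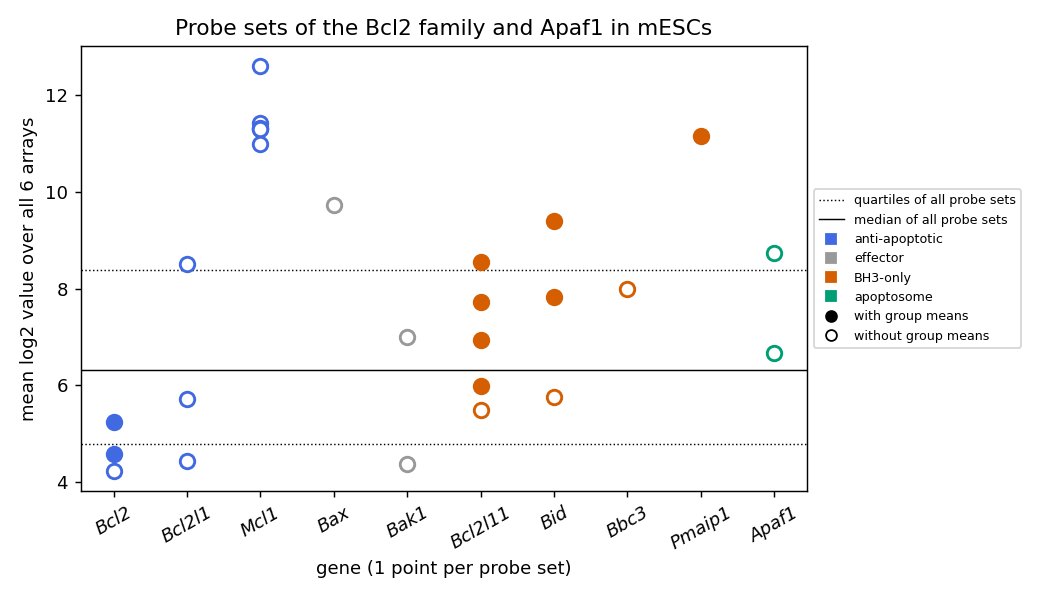
Mean log2 value over all 6 arrays (y axis) for the 27 probe sets of the 10 genes (x axis), coloured by role, with horizontal lines at the quartiles (dotted) and the median (solid) of all 33142 probe sets. Filled points are the 9 probe sets with group means; all 6 of *Mcl1* and that of *Pmaip1* lie above the upper quartile, and the 3 of *Bcl2* below the median.

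A fold of 1.5 between the group means was taken as a descriptive threshold. *Bcl2l11* passed it in the direction of lower values and *Pmaip1* in the direction of higher values, 2 of the 4 members with group means. Of the 2240 genes with group means, 33.6% passed it as lower and 31.6% as higher. With 4 members, these shares give no basis for setting the members apart.

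The other genes of the pathway were taken from lists of 41 genes, of which 38 have a named probe set. Of these 38, 5 had group means (2 higher and 3 lower in *Alkbh1*-/- mESCs), against 14.7% of all genes of the table. These counts give no basis for setting the lists apart, and the values below are descriptions of single genes. None of the 11 measured further Bcl2 family genes had group means. Among 6 apoptosome and mitochondrial genes, *Aifm1*, which encodes the apoptosis-inducing factor, had an authors' mean intensity of 979 in WT and 1902 in *Alkbh1*-/- mESCs, 1.94-fold higher. Of 5 inhibitor of apoptosis genes, *Xiap*, which encodes a direct inhibitor of caspases, was 1.97-fold higher in *Alkbh1*-/- mESCs (authors' mean intensity 693 in WT and 1367 in *Alkbh1*-/-). *Birc3*, which encodes a ubiquitin ligase of the same family, was 1.46-fold lower (113 in WT and 77.3 in *Alkbh1*-/-). Both genes that were higher lie on the X chromosome, where 257 of the 278 genes with group means were higher in *Alkbh1*-/- mESCs.

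Among the 4 genes of the p53 axis, *Cdkn1a*, a p53 target that encodes the cell cycle inhibitor p21, had an authors' mean intensity of 1441 in WT and 889 in *Alkbh1*-/- mESCs, 1.62-fold lower. *Pmaip1*, another target, differed in the other direction, and a part of p53 in either difference was not tested. *Trp53*, *Mdm2* and *Mdm4* had no group means. Of 7 genes of death receptors and their signalling proteins, *Cflar*, which encodes the caspase-8 inhibitor FLIP, was 1.47-fold lower (68.0 in WT and 46.2 in *Alkbh1*-/-).

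**Figure D3:**
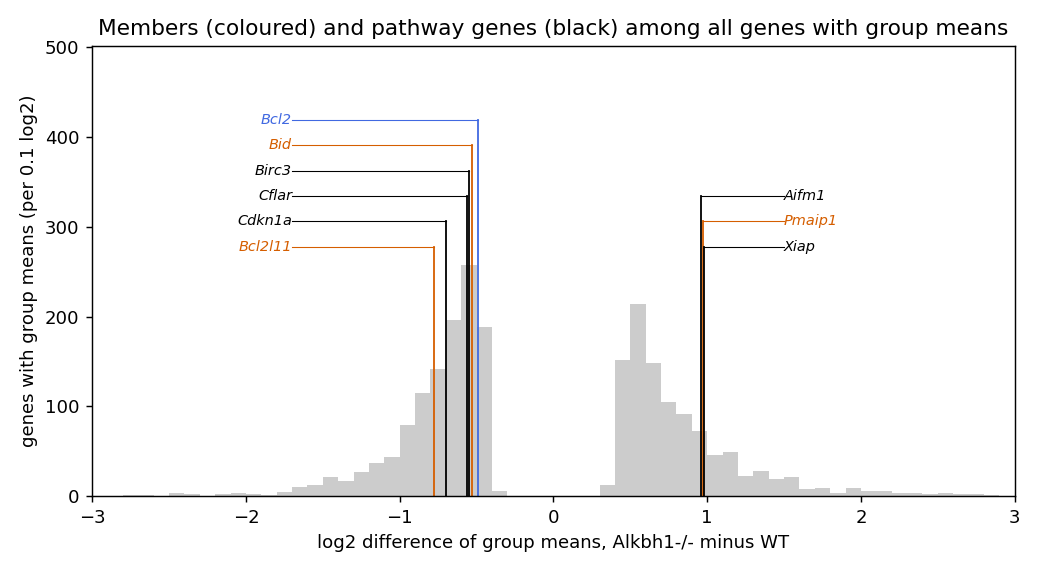
Number of genes with group means (y axis) by the log2 difference of these means, *Alkbh1*-/- minus WT (x axis, bins of 0.1 in width); lines mark the 4 members (coloured) and the 5 pathway genes (black), and 20 genes lie beyond the axis. The empty centre shows that genes with small differences have no group means; *Bcl2*, *Bid*, *Bcl2l11*, *Birc3*, *Cflar* and *Cdkn1a* lie on its left and *Pmaip1*, *Aifm1* and *Xiap* on its right.

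Several properties of the cultures moved with the genotype. Markers of undifferentiated mESCs were bright, with mean log2 values between 10.05 and 14.49 for all 8 genes listed, and the 5 endoderm markers lay between 3.92 and 5.31. Group means were given for 4 of the 8, of which 3 were higher and 1 was lower in *Alkbh1*-/- mESCs, and *Pou5f1*, *Sox2*, *Dppa5a* and *Tdgf1* had none. *Nanog* was 2.15-fold, *Esrrb* 1.47-fold and *Zfp42* 1.33-fold higher in *Alkbh1*-/- mESCs, and *Utf1* was 1.40-fold lower. The 4 neural markers, with mean log2 values between 5.41 and 8.04, and the endoderm markers had no group means. Of 8 markers of feeder fibroblasts, with mean log2 values between 5.08 and 11.82, *Col1a1*, *Col3a1* and *Thy1* had group means. All 3 were lower in *Alkbh1*-/- mESCs (summed authors' mean intensity of these 3 genes 2652 in WT and 1426 in *Alkbh1*-/-). The other 5 had none, among them *Col1a2*, the brightest of the 8. The sum therefore covers only markers that were selected for a difference and does not describe the whole list. All 4 Y-linked genes with group means were lower in *Alkbh1*-/- mESCs, with a median log2 difference of −4.45 (summed authors' mean intensity 1358 in WT and 47.7 in *Alkbh1*-/-). Of 278 X-linked genes with group means, 257 were higher, with a median log2 difference of 0.75. The 2 lines thus differed in X- and Y-linked signal, and effects of this difference cannot be told apart from those of genotype. None of the 10 members is X- or Y-linked: besides *Bcl2*, *Apaf1* and *Pmaip1*, whose chromosomes are given above, *Bcl2l1* and *Bcl2l11* lie on chromosome 2, *Mcl1* on 3, *Bid* on 6, *Bax* and *Bbc3* on 7 and *Bak1* on 17. The part of feeder cells and of the sex chromosomes in the differences of *Bcl2*, *Bcl2l11*, *Bid* and *Pmaip1* was not tested. The same holds for *Aifm1* and *Xiap*, which are X-linked, and for the other pathway genes. In bulk RNA, fewer cells of a type cannot be told apart from less RNA per cell.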

How the data were processed

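Total RNA of 6 mESC samples (3 WT and 3 *Alkbh1*-/-), which the labels do not assign to separate cultures, was hybridized by the authors to Affymetrix arrays and normalized together with the robust microarray analysis algorithm (RMA). The authors deposited a table of 33142 probe sets, whose mean log2 values over all arrays were used. They also deposited a class comparison by a service company, whose geometric means of linear intensity per genotype were used. Both tables also hold the authors' fold changes, test statistics and p-values, which were not used. The number of arrays limits the precision. No array was used on its own, and no test between the genotypes was made here.

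In the class comparison, probe set names are out of register with the values. Its 4326 entries were therefore joined to the larger table by the mean of both log2 group means, each being the other's nearest within 0.0001, and 4265 were joined, 4261 of them within 0.000001. Only 8 had the same identifier on both sides, although the 9 member probe sets joined were those 9 that the class comparison lists by name. For genes with several probe sets, a pair had the same sign in 99.4% of 694 genes by the joined names and in 51.6% of 732 genes by its own. The name of the WT class was read from the description deposited with the tables. The join was tested on simulated tables.

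Genes were named by gene identifier, accession or symbol through RefSeq (GRCm38.p6), for 83.2% of probe sets. The text names all members, *Alkbh1* and the list genes with group means. Members and lists were chosen with earlier results of these data known. The result of 1 of the lists is not reported here. A limma fit had been set for values of single arrays, and protein features of the members had been planned; neither was run. Python 3.11.15, pandas 2.3.3, NumPy 2.4.6 and matplotlib 3.10.9 were used.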

Additional observations from a re-analysis of the deposited data

How the results depend on the processing

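No paired analysis was possible because the deposited columns used hold 1 mean per genotype and no single arrays. For the same reason no array could be left out. With tolerances of 0.00005 and 0.0002 for joining the tables, and of 0.000001, which was chosen after seeing the data, 2 members passed 1.5-fold as before, and the folds of *Bcl2*, *Bcl2l11*, *Bid* and *Pmaip1* were unchanged. A threshold of 2-fold left 0 members, since *Pmaip1* is at 1.96-fold. Counting every probe set gave 4 (3 of *Bcl2l11* and that of *Pmaip1*). The median over the probe sets with group means gave *Alkbh1*-/- over WT as 0.704 for *Bcl2*, 0.624 for *Bcl2l11* and 0.687 for *Bid*, against 0.713, 0.583 and 0.693 at the brightest. The median level of the members was 8.64 (log2) with the brightest probe set and 7.76 with the median probe set of each gene; rows with several symbols added nothing. Above the upper quartile in place of the median lay 7 members in place of 9. The brightest probe set of *Bcl2* lay at the 33.2 percentile of all probe sets, and no direct measure of background was at hand. In *Alkbh1*-/- mESCs, the 2 probe sets of the targeted *Alkbh1* read 25.7 and 34.6, and the 2 of *Bcl2* with group means read 31.8 and 20.0. A part of background signal in the difference of *Bcl2* was not tested.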
